A study of Mus musculus with 2 samples.

Results

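Sphingosine-1-phosphate (S1P) is made, moved, removed and sensed by the products of the 10 genes described here, chosen by symbol from the 32285 genes listed in each matrix: the kinases Sphk1 and Sphk2, the lyase Sgpl1, the phosphatase Sgpp1, the exporter Spns2 and the receptors S1pr1, S1pr2, S1pr3, S1pr4 and S1pr5. Single cells of back skin and of the preputial gland, a modified sebaceous gland of rodents, were measured by droplet-based RNA sequencing of transcript 3' ends. All mice were male wild-type C57BL/6 aged 52 weeks, and no treatment was given to either group as far as labels and methods state. Skin came from 6 mm biopsies, and preputial glands were taken whole. Each tissue is 1 library of cells pooled from 3 mice, so animals cannot be separated, tissue and library cannot be told apart, and no difference has a replicate check or a test. The matrices list 6794880 possible barcodes for skin and 737280 for the gland, although the labels name the same kit for both, and any difference between the preparations cannot be told apart from tissue.

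S1P is formed when a sphingosine kinase phosphorylates sphingosine, the base released when ceramide is cleaved. Outside the cell it acts as a lipid signal through G protein-coupled receptors, and it is known above all for guiding lymphocytes out of tissues and for keeping endothelial junctions closed. Inside the cell it is either dephosphorylated to sphingosine, which can return to ceramide, or cleaved irreversibly by the lyase.

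Values are counts of unique molecular identifiers (UMIs, each standing for 1 captured transcript), summed over the cells of a class and given per 1000000 UMIs of that class (CPM). A barcode was kept with 500 or more genes, 1000 or more UMIs and no more than 10% of UMIs from mitochondrial genes, which left 8899 cells in skin (median 2386 UMIs) and 4699 in the preputial gland (median 2729 UMIs), with 0 kept barcodes shared between the libraries. A cell entered a class when it had UMIs of at least 3 of the class's markers. The sebocyte, hair matrix and inner root sheath gates went before the other epithelial gates, macrophage before dendritic, and lymphatic before blood endothelial. Where epithelial gates still competed, the class with the larger share of its markers was taken. Cells that passed the gates of more than 1 lineage, or of sebocytes and a hair class, were left out (669 in skin, 244 in the gland). Brackets after a CPM hold its exact 95% Poisson interval, and those after a log2 ratio an exact conditional binomial interval. Both cover counting error only, and a CPM is relative to all other RNA of its class.

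The gates were checked on markers they had not used. All 3 check markers of blood endothelial cells, fibroblasts and macrophages were at least 3-fold higher in their class than in the other gated cells of the same tissue. The gland cells that passed the suprabasal gate did not bear out its name: 1 of 3 check markers was 3-fold higher, Lor stood at 2.04 CPM against 1.96 CPM in the other gated gland cells, and a median of 36 suprabasal marker UMIs stood beside 34 of the upper follicle list. They are called suprabasal-gated cells, and are not a match for the skin class. Basal-gated cells differed as well: their median of basal marker UMIs was 14 in the gland and 46 in skin. In the gland 31.3% of them had exactly 3 basal markers, against 13.6% in skin, and the next list was that of sebocytes, with a median of 3 UMIs. The basal classes of the 2 tissues are thus not shown to hold like cells. Of the 846 sebocyte-gated gland cells, 622 (73.5%) had exactly 3 sebocyte markers, and 226 ungated gland cells had 2, so this class is a range cut from a score. The 34 skin sebocytes carried a median of 13.5 basal marker UMIs beside 15 of their own, and gland macrophages a median of 121 UMIs of the dendritic list beside 34 of their own.

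The 10 genes gave 5639 UMIs over the kept skin cells (0.634 per cell) and 6509 over the kept gland cells (1.39 per cell). The phosphatase Sgpp1 alone held 2530 of these UMIs in skin and 3660 in the gland. S1pr4 held the fewest, with 29 and 5. Counts of 3' ends do not grow with transcript length, but capture can differ between genes, so levels are mostly compared between classes.

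**Figure D1:**
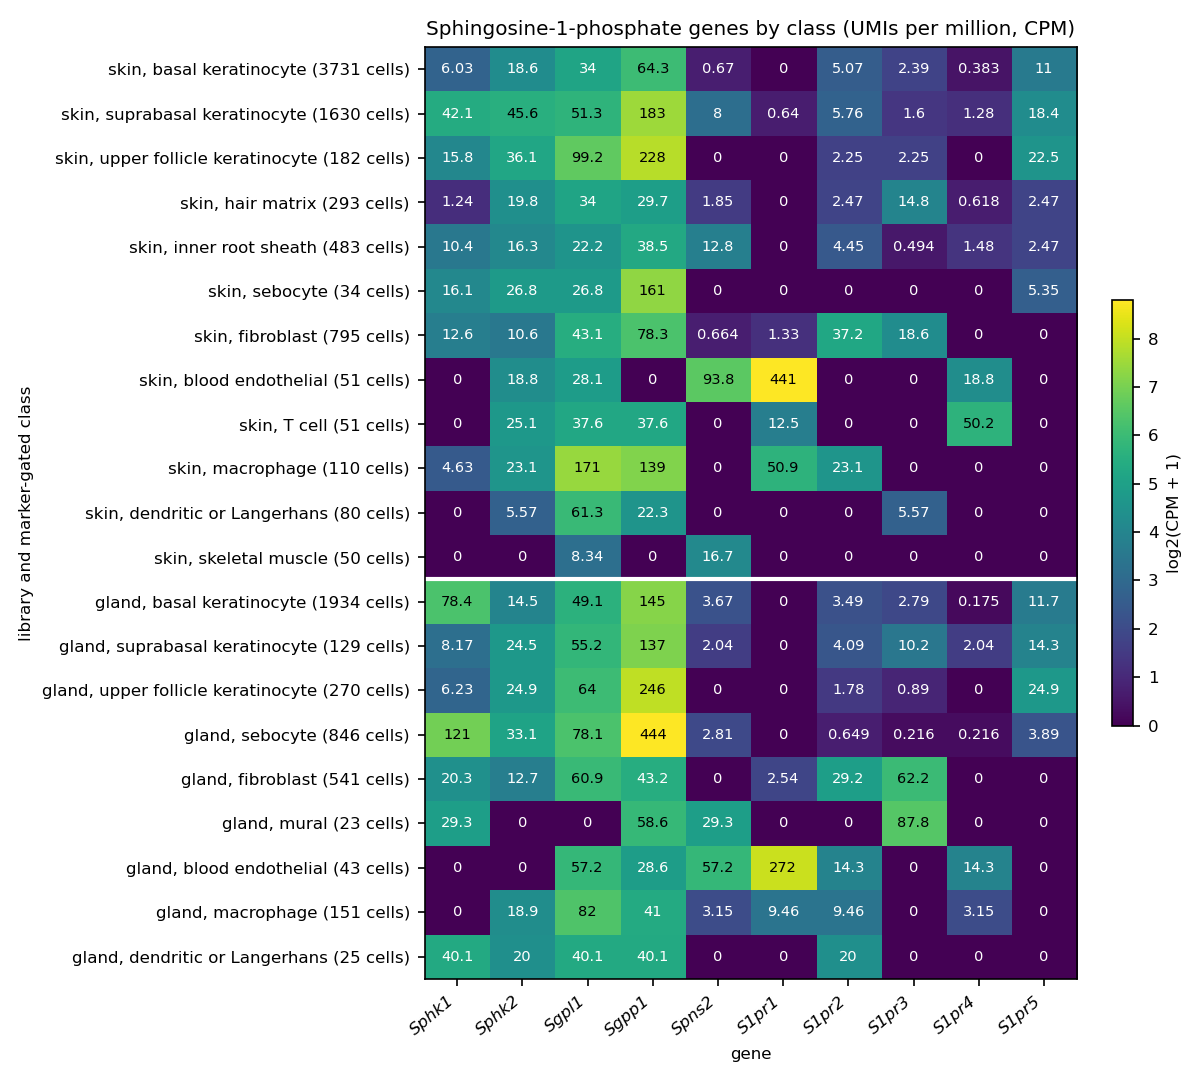
Level of each of the 10 genes (columns) in every class of at least 20 cells of back skin and preputial gland (rows), coloured by log2(CPM + 1) and printed as CPM. Sphk1 reached 78.4 and 121 CPM in gland basal cells and sebocytes, Sgpp1 444 CPM in gland sebocytes, and S1pr1 441 and 272 CPM in the blood endothelial cells of skin and gland.

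A first reading counted the genes at least 4-fold higher in a class than in all other gated cells of the same tissue. In skin this held for Sphk1 in suprabasal keratinocytes, 1 of 10 members tested, where 2.56% of all 13894 genes tested passed. Fibroblasts had 2, S1pr2 and S1pr3 (10.3% of all genes), blood endothelial cells 2, Spns2 and S1pr1 (4.79%), and macrophages 2, Sgpl1 and S1pr1 (5.46%). In the gland, of 9 members tested, S1pr2 and S1pr3 passed in fibroblasts (10.9% of 12378 genes) and S1pr1 in blood endothelial cells (5.87%), while sebocytes had 0 (1.43%).

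The same class was then compared between tissues, counting genes at least 2-fold apart in either direction. In basal keratinocytes 3 of 8 members passed, Sphk1, Sgpp1 and Spns2, all higher in the gland, beside 35.0% of all genes. These basal-gated cells differ in marker content between the tissues, as given above. In sebocytes 3 of 4 passed, Sphk1, Sgpl1 and Sgpp1, all higher in the gland (35.1% of all genes), and in fibroblasts 1 of 6, S1pr3, higher in the gland (19.0%). In suprabasal-gated cells Sphk1 and Spns2, 2 of 7, were lower in the gland (38.0%), in macrophages Sgpl1 and Sgpp1, 2 of 2, were lower (32.1%), and in upper follicle keratinocytes 0 of 4 passed (35.9%). About 1 gene in 3 of any kind was as far apart in the epithelial classes, so most of these counts are no result about the members, and single genes are read by the size of their difference. Over the genes with at least 20 UMIs in both tissues, the median log2 ratio of gland over skin was 0.13 (basal), 0.15 (suprabasal), -0.31 (upper follicle), -0.33 (sebocyte) and -0.25 (macrophage). Over all genes counted it was 0.04, -0.23, -0.12, -0.17 and -0.19 in the same order, so its sign in the suprabasal class depends on the genes taken. The Sgpl1 call in macrophages was lost in 6 of 8 alternatives, and the suprabasal Spns2 call rests on 1 gland UMI.

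Sphk1 (chr11:116530925-116536674, plus strand of mm10), the kinase found mainly in the cytoplasm, was highest of the skin classes in suprabasal keratinocytes and of the gland classes in sebocytes and basal cells. In skin it stood at 6.03 CPM (4.63 to 7.71) in basal keratinocytes and at 42.1 CPM (37.1 to 47.5) in suprabasal keratinocytes, which held 263 of the 380 Sphk1 UMIs of gated skin cells. In the gland it stood at 78.4 CPM (71.3 to 86.0) in basal cells and 121 CPM (111 to 131) in sebocytes, which held 449 and 558 of the 1038 Sphk1 UMIs of gated gland cells. Suprabasal-gated gland cells had 8.17 CPM (2.23 to 20.9) and upper follicle gland cells 6.23 CPM (2.50 to 12.8), lower than gland basal cells by 3.26 (1.90 to 5.14) and 3.65 (2.60 to 4.98) on the log2 scale. In skin the basal and suprabasal intervals do not overlap, with suprabasal cells higher, and in the gland the basal interval lies above those of both the suprabasal-gated and the upper follicle cells. Skin suprabasal keratinocytes did not differ beyond counting error from the next class in order, the 34 sebocytes at 16.1 CPM (3.31 to 46.9).

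Between tissues, basal Sphk1 was higher in the gland by 3.70 on the log2 scale (3.32 to 4.11). With basal cells limited to those with no sebocyte marker after thinning every cell to 1000 UMIs, the ratio was 2.93 (2.43 to 3.45). In sebocytes it was 2.91 (1.36 to 5.19), on 558 gland UMIs against 3 skin UMIs. Free RNA, read from barcodes with at most 100 UMIs, held Sphk1 at 7.37 CPM in skin and 34.9 CPM in the gland, below the gland basal and sebocyte levels. After thinning, 7.86% of gland basal cells had a Sphk1 UMI (6.70 to 9.15, exact binomial; 17.3% unthinned) against 0.697% of skin basal cells (0.456 to 1.02; 1.66% unthinned). Gland macrophages, a class outside the epithelium, had 0 in 151 cells, which allows 9.46 CPM. Median depths of these classes were 2751.5, 2392 and 1863 UMIs.

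Fibroblasts held modest Sphk1 in both tissues, 12.6 CPM (7.59 to 19.7) in skin and 20.3 CPM (11.6 to 33.0) in the gland, and these intervals overlap. Hair matrix cells of skin had 1.24 CPM (0.15 to 4.46) and inner root sheath cells 10.4 CPM (6.42 to 15.9), a difference of 3.07 on the log2 scale (1.04 to 6.21). Blood endothelial cells had 0 Sphk1 UMIs in both tissues, which allows 28.1 CPM in skin and 42.9 CPM in the gland.

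Sphk2 (chr7:45709467-45718002, minus strand), the kinase found in the nucleus and at membranes, differed less between classes. In skin it was 18.6 CPM (16.0 to 21.4) in basal and 45.6 CPM (40.4 to 51.2) in suprabasal keratinocytes, 1.30 apart on the log2 scale (1.03 to 1.57). In the gland it was 14.5 CPM (11.5 to 18.0) in basal cells and 33.1 CPM (28.1 to 38.8) in sebocytes, 1.19 apart (0.80 to 1.59). Between tissues the basal ratio was -0.36 (-0.75 to 0.02), so no difference in Sphk2 was detectable there at this depth while Sphk1 in the same cells was 3.70 apart. Of all kinase UMIs, Sphk1 made up 84.4% in gland basal cells (81.0 to 87.4, exact binomial) and 78.5% in gland sebocytes, against 24.5% in skin basal (19.4 to 30.2) and 48.0% in skin suprabasal keratinocytes (43.7 to 52.3).

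Sgpp1 (chr12:75714249-75735729, minus strand), the phosphatase of the endoplasmic reticulum that turns S1P back into sphingosine, had the highest count of the 10. In skin it was 64.3 CPM (59.5 to 69.3) in basal, 183 CPM (172 to 194) in suprabasal and 228 CPM (185 to 277) in upper follicle keratinocytes. In the gland it was 145 CPM (135 to 155) in basal cells, 246 CPM (218 to 277) in upper follicle cells and 444 CPM (425 to 463) in sebocytes. Basal cells were thus below upper follicle cells and sebocytes in both tissues, with skin sebocytes at 161 CPM (108 to 229), but the suprabasal-gated gland cells, at 137 CPM (106 to 174), did not differ from gland basal cells beyond counting error. Upper follicle cells did not differ between tissues beyond counting error, at 0.11 (-0.22 to 0.46), whereas basal cells differed by 1.17 (1.02 to 1.32) and sebocytes by 1.47 (0.95 to 2.04). Gland basal cells with no sebocyte marker after thinning had 119 CPM. Skin cells of the basal and sebocyte gates with no such marker had 62.1 CPM. With basal cells limited in this way, the ratio between tissues moved outside the interval of the main value.

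Free RNA bears on the gland values of Sgpp1: it held 620 CPM in the gland, above every gland class of at least 20 cells, and 59.1 CPM in skin. Estimated from the fibroblast check markers, its share of UMIs was 54.7% in suprabasal-gated gland cells, against 9.93% in gland basal cells. The first share is too high: it would bring in more Sgpp1 than the 137 CPM these cells had, and more Sphk1 than they had. The free RNA share of the suprabasal-gated gland cells is therefore not known, and their values are uncertain as levels of those cells. With free RNA subtracted at that share, Sphk2, Sgpl1 and Sgpp1 were also counted as 2-fold lower there than in the skin class. Since the share is too high, these 3 counts are no result about the cells. Without subtraction the log2 ratios of gland over skin were -0.89 for Sphk2, 0.10 for Sgpl1 and -0.42 for Sgpp1. With the expected free RNA subtracted, the basal ratio of gland over skin was 0.45 in place of 1.17, the sebocyte ratio 1.29 in place of 1.47, and that of gland sebocytes over gland basal cells moved from 1.62 to 2.24. The estimated share was 8.20% in gland sebocytes and 0.0% in skin sebocytes, on 34 cells. The sebocyte ratio between tissues was thus changed on the gland side alone. With each cell thinned to 1000 UMIs, the sebocyte ratio between tissues was 0.90 (-0.16 to 2.22).

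Sgpl1 (chr10:61098642-61147703, minus strand), the lyase that ends the pathway by cleaving S1P into a long-chain aldehyde and phosphoethanolamine, was highest in skin macrophages. They had 171 CPM (121 to 236) on 37 UMIs, against 99.2 CPM (72.1 to 133) in upper follicle, 51.3 CPM (45.9 to 57.3) in suprabasal and 34.0 CPM (30.5 to 37.7) in basal keratinocytes. Gland macrophages had 82.0 CPM (53.6 to 120), lower than in skin by 1.06 on the log2 scale (0.30 to 1.84), and gland sebocytes 78.1 CPM (70.3 to 86.6). In the gland, macrophages, sebocytes, upper follicle cells and fibroblasts ran from 82.0 to 60.9 CPM, and neighbours in that order did not differ beyond counting error. Gland basal cells were at 49.1 CPM, below sebocytes by 0.67 on the log2 scale (0.44 to 0.90). Free RNA held Sgpl1 at 85.0 CPM in the gland, above each of these classes, and at 17.2 CPM in skin. With the expected free RNA subtracted, gland sebocytes over basal cells stood at 0.81 (0.56 to 1.06), and gland over skin macrophages at -1.12 (-1.92 to -0.35). An overlapping gene on the same strand, Gm44308, is annotated within the span of Sgpl1.

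**Figure D2:**
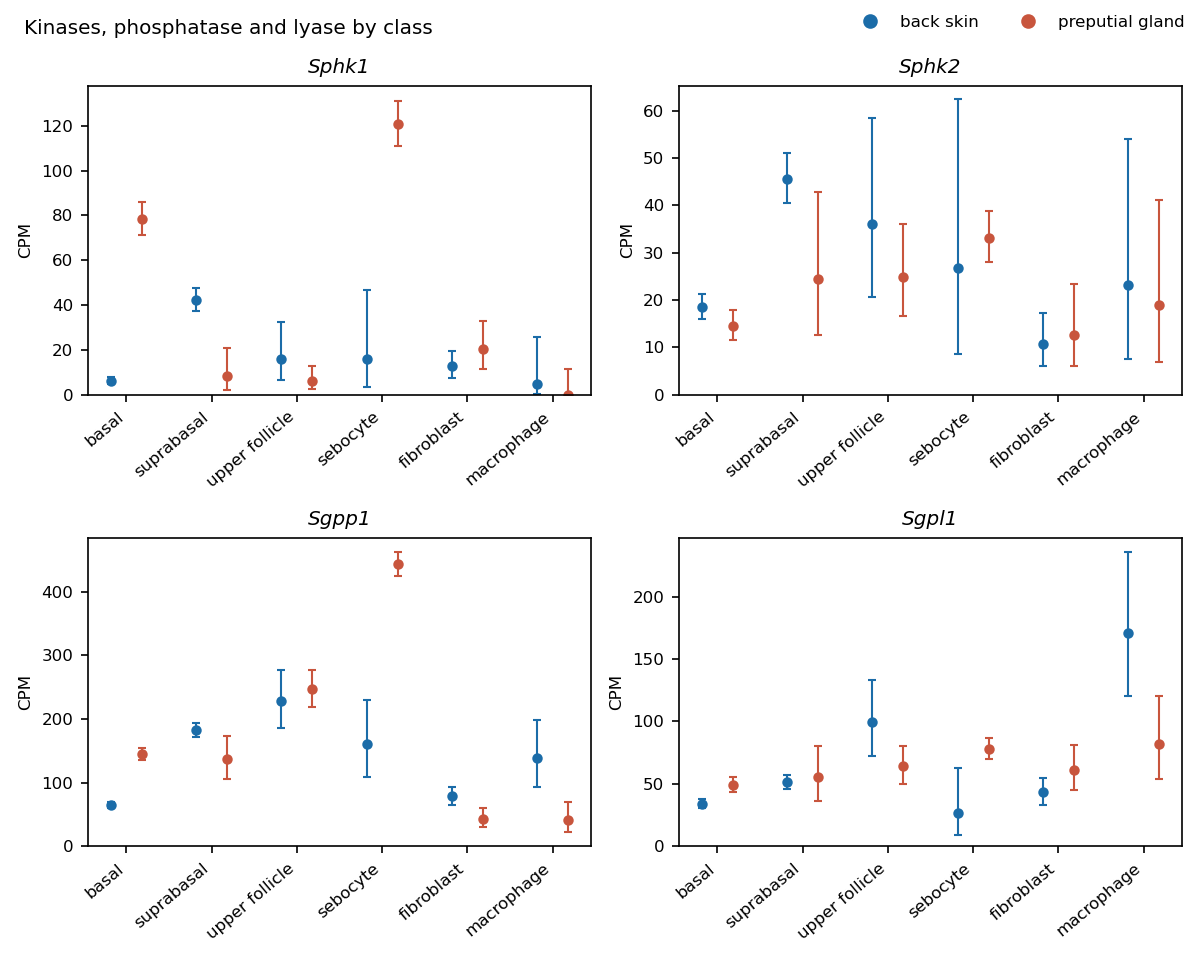
CPM of the 4 S1P enzymes in 6 classes of back skin (blue) and preputial gland (red), points with exact 95% Poisson intervals, linear axes from 0. Sphk1 stands at 6.03 CPM in skin and 78.4 CPM in gland basal cells and at 16.1 and 121 CPM in sebocytes, and Sgpp1 reaches 444 CPM in gland sebocytes.

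The 3 enzymes that were higher in gland than in skin sebocytes are shown with the bases just upstream of a RefSeq start, since they are the members counted as 2-fold apart there. The skin side of that count rests on 3 UMIs of Sphk1, 5 of Sgpl1 and 30 of Sgpp1, and with each cell thinned to 1000 UMIs only Sphk1 was still counted. Bases come from RefSeq on GRCm38.p6 (mm10), read 5' to 3' on the gene's strand and outside every exon annotated by GENCODE M21, with motif matches in capitals. For Sphk1 (chr11:116532194-116532443, plus strand), which has 5 listed starts, the start with the longest stretch free of exons is shown, and the stretch lies within the span of the gene. The Sgpp1 stretch is chr12:75735730-75735979 and that of Sgpl1 chr10:61147704-61147934, both minus strand.
Sphk1: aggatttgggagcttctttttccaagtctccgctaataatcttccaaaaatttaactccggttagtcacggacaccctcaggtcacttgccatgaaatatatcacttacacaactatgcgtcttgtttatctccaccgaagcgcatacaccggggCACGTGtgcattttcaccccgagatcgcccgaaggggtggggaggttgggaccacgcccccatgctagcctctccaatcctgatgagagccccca
Sgpp1: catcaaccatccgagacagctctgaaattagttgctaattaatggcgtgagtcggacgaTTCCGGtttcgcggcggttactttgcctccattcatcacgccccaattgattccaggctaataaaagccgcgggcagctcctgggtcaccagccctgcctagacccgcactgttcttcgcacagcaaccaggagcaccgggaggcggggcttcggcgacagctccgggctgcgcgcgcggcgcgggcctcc
Sgpl1: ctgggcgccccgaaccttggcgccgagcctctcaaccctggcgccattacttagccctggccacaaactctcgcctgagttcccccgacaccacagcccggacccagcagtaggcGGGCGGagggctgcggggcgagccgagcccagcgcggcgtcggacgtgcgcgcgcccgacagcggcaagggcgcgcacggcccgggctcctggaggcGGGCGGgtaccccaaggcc
Of 6 motifs searched on both strands, the Sphk1 stretch held 1 E-box (CACGTG), the Sgpp1 stretch 1 ETS core (CCGGAA, on the opposite strand) and the Sgpl1 stretch 2 GC boxes (GGGCGG). These letters are found in 6.02%, 12.0% and 32.7% of all 32851 RefSeq promoter windows of 250 bases. The letters of AP-1 (TGAGTCA), of the core promoter element TATAAA and of DR1, in 4.46%, 12.4% and 0.0335% of the windows, were in none of the 3 stretches. Of the 10 members, 9 had an entry in the table.

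The gland epithelium was next read in steps, by how many of the 6 sebocyte markers a basal-gated or sebocyte-gated cell held after thinning to 1000 UMIs. The steps were chosen after the data had been seen, and hold 677 cells with 0 markers, 1179 with 1, 616 with 2, 249 with 3 and 59 with 4 or more. Sphk1 was 44.8 CPM (36.2 to 54.9), 95.8, 134, 133 and 23.2 CPM (11.1 to 42.6) over these steps. Sgpp1 was 121, 158, 291, 501 and 1300.0 CPM, and Sgpl1 45.8, 49.9, 53.1, 60.2 and 308 CPM (258 to 365). Sphk1 was therefore highest in the middle steps, whereas Sgpp1 was higher at each step and the lyase stood apart at the last step alone. Gland free RNA held more Sgpp1 and more Sgpl1 than the steps from 0 to 3 markers did. Its share was not estimated for each step. Sphk2 was 16.9, 14.0, 30.7, 24.7 and 74.2 CPM (50.7 to 105). The summed class ratios move with the gate accordingly: with 1 more marker needed, sebocytes over basal cells stood at 0.01 (-0.28 to 0.30) for Sphk1 in place of 0.62, at 2.44 for Sgpp1 in place of 1.62 and at 1.36 for Sgpl1 in place of 0.67.

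From 3 markers to 4 or more, Sphk1 was lower by 2.52 on the log2 scale (1.61 to 3.60), Sgpp1 higher by 1.38 (1.21 to 1.54) and Sgpl1 higher by 2.36 (1.95 to 2.77). Mitochondrial RNA moved with the last step: its cells had a median mitochondrial share of 5.42%, against 3.13% to 3.31% in the other steps. In cells with at most 5%, which 24 of the 59 were, the Sphk1 ratio was -0.42 (-1.29 to 0.35) and that of Sgpl1 1.19. The Sgpp1 ratio had a counting interval of 0.70 to 1.29. The lower Sphk1 level at the last step was thus not detectable in the cells of low mitochondrial share. Median depth also differed, from 2758 UMIs at 0 markers to 7513 at 4 or more.

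**Figure D3:**
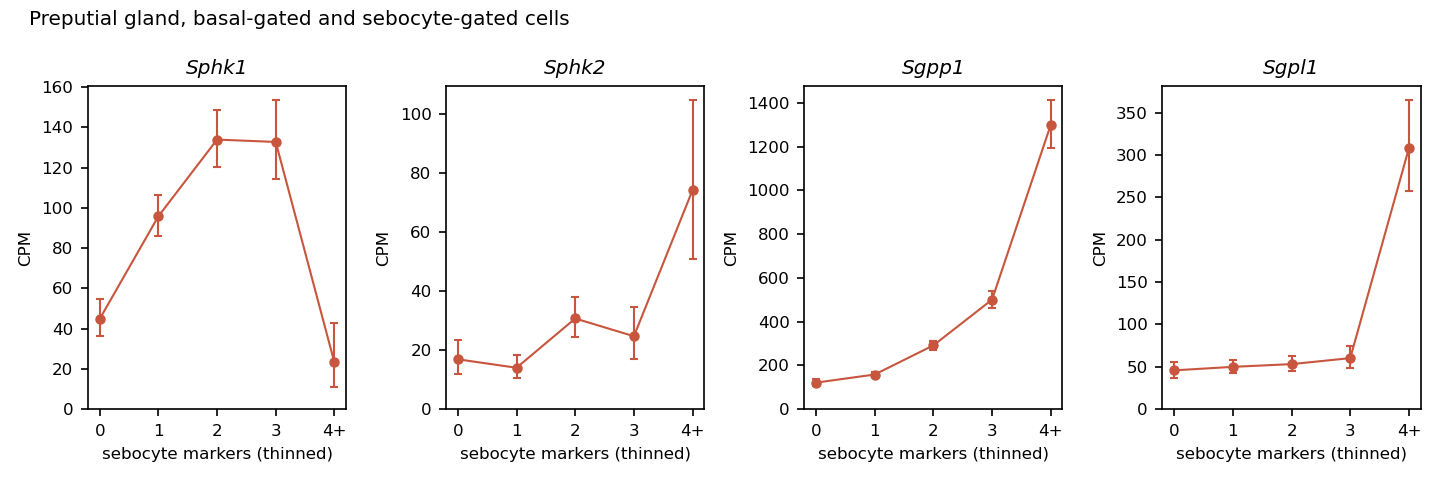
CPM of Sphk1, Sphk2, Sgpp1 and Sgpl1 in gland basal-gated and sebocyte-gated cells, by the number of sebocyte markers in 1000 UMIs (0, 1, 2, 3, 4 or more), with exact 95% Poisson intervals and linear axes from 0. Sphk1 peaks at 134 CPM with 2 markers and stands at 23.2 CPM at the last step, where Sgpp1 reaches 1300.0 and Sgpl1 308 CPM.

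By the 6 suprabasal markers, read in basal-gated and suprabasal-gated cells, gland Sphk1 was 108 CPM (98.0 to 119) in cells with 0 markers and 14.9 CPM (8.998 to 23.3) in cells with 1. It was 15.6 CPM with 2 and 8.44 CPM (1.74 to 24.7) with 3. In skin, Sphk1 lay between 4.41 and 10.5 CPM from 0 to 4 suprabasal markers and was 49.3 CPM (43.4 to 55.9) in cells with 5 or more. Skin Sgpp1 was 71.1, 63.2 and 59.8 CPM with 0, 1 and 2 markers, 78.3 CPM with 3, 125 CPM with 4 and 194 CPM (182 to 207) with 5 or more. Cells with 3 markers did not differ from cells with 0 beyond counting error, at 0.14 (-0.21 to 0.49), and those with 5 or more were above those with 4 by 0.64 (0.37 to 0.91).

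Spns2 (chr11:72451638-72489904, minus strand), the transporter that carries S1P out of the cell, was sparse, with 138 UMIs in kept skin cells and 48 in kept gland cells. Blood endothelial cells had the highest level of the classes with at least 20 cells: 93.8 CPM (45.0 to 172) on 10 UMIs in skin and 57.2 CPM (15.6 to 146) on 4 UMIs in the gland. The 16 lymphatic endothelial cells of skin had 220 CPM (88.5 to 454) on 7 UMIs. In skin epithelium it was 12.8 CPM (8.39 to 18.8) in the inner root sheath, 7.996 CPM (5.93 to 10.5) in suprabasal and 0.670 CPM (0.269 to 1.38) in basal keratinocytes. Gland basal cells had 3.67 CPM (2.27 to 5.61), higher than skin basal cells by 2.45 on the log2 scale (1.17 to 3.93). The suprabasal-gated gland cells had 1 UMI, or 2.04 CPM, and their ratio to the skin class, -1.97 (-7.30 to 0.58), did not differ from 0 beyond counting error. Free RNA held Spns2 at 4.56 CPM in skin, above the skin basal level, and at 1.55 CPM in the gland, below the gland basal level.

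The suprabasal Spns2 of skin lay in a few cells. Suprabasal keratinocytes were split by the share of their UMIs from Lor, which encodes loricrin of the cornified envelope, with limits chosen after the data had been seen. The 45 cells with 1% or more Lor held 45 of the 50 Spns2 UMIs, in 15 cells, and the 1412 cells without Lor held 2. The level was 130 CPM (94.6 to 173) against 0.408 CPM (0.0494 to 1.47), and 7.26 higher on the log2 scale (5.93 to 8.95) than in all other suprabasal cells. These cells were also deep, with a median of 7381 UMIs against 2864, and expressed Flg at 4538 and Lce1m at 18923 CPM, genes of the granular and cornified layers. Without them the ratio of suprabasal over basal Spns2 was 0.34 (-1.66 to 2.21) in place of 3.58 (2.43 to 4.96), so the suprabasal value rests on these 45 cells.

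The enzymes differed along the same axis by less. From no Lor to 1% or more, Sphk1 was 30.6, 55.4, 128 and 130 CPM, Sgpp1 179, 163, 209 and 268 CPM and Sgpl1 49.5, 36.2, 46.5 and 115 CPM over the 4 groups of 1412, 151, 22 and 45 cells. Between the highest group and all other suprabasal cells, Sphk1 was 1.81 higher (1.32 to 2.28), Sgpl1 1.28 (0.76 to 1.76), Sphk2 0.77 (0.13 to 1.36) and Sgpp1 0.59 (0.27 to 0.90). Sphk1 in suprabasal over basal keratinocytes was 2.61 without these cells and 2.80 with them, so unlike Spns2 its level did not rest on them. Of the receptors, S1pr5 was 40.3 CPM (22.1 to 67.7) in the highest group against 15.9 CPM in cells without Lor, S1pr4 had 4 of its 8 suprabasal UMIs there, and S1pr2 had 0 of 36.

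**Figure D4:**
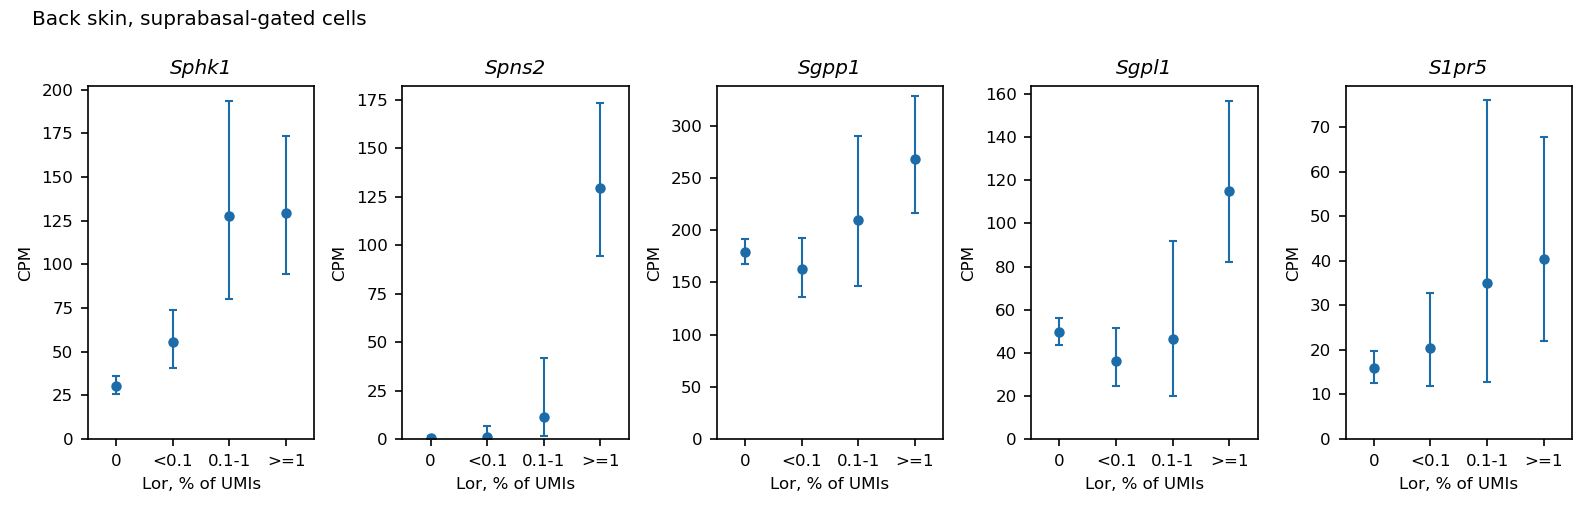
CPM of Sphk1, Spns2, Sgpp1, Sgpl1 and S1pr5 in suprabasal keratinocytes of back skin by the percent of a cell's UMIs from Lor (0, under 0.1, 0.1 to 1, and 1 or more), with exact 95% Poisson intervals and linear axes from 0. Spns2 stands at 130 CPM in the last group and at or below 11.6 CPM in the others, while Sphk1 is at 128 CPM already in the third group.

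S1pr1 (chr3:115710433-115715072, minus strand), the receptor through which lymphocytes leave tissues and endothelial barriers are kept, was highest in endothelial cells in both tissues. Blood endothelial cells had 441 CPM (324 to 586) on 47 UMIs in skin and 272 CPM (164 to 424) on 19 UMIs in the gland, and the 16 lymphatic endothelial cells of skin 314 CPM (151 to 578) on 10. A S1pr1 UMI was present after thinning in 37.3% of skin (24.1 to 51.9; 54.9% unthinned) and 25.6% of gland blood endothelial cells (13.5 to 41.2; 32.6% unthinned). Among basal keratinocytes, 0 of 3731 cells in skin (upper bound 0.0988%) and 0 of 1934 in the gland (0.191%) had a S1pr1 UMI, bounds on cells with a UMI and not on cells that express the gene, at median depths of 2392 and 2751.5 UMIs against 1706 and 1367. The level did not differ between tissues beyond counting error, at -0.70 (-1.55 to 0.10).

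Skin macrophages also held S1pr1, 50.9 CPM (25.4 to 91.1) on 11 UMIs, and gland macrophages 9.46 CPM (1.95 to 27.7) on 3, where free RNA held 6.21 CPM in the gland and 1.58 CPM in skin. The skin value was 4.18 higher than in the other gated cells (3.11 to 5.11), and 2.71 (-2.64 to 5.28) under higher minimums of genes and UMIs per cell. The 51 skin T cells had 1 UMI, or 12.5 CPM (0.32 to 69.9), so the level in T cells could not be resolved at this depth. Gland sebocytes had 0 S1pr1 UMIs, which allows 0.649 CPM.

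S1pr2 (chr9:20962361-20976781, minus strand), another of the receptors, was highest in fibroblasts. It was 37.2 CPM (28.1 to 48.3) in skin fibroblasts and 29.2 CPM (18.5 to 43.8) in those of the gland, with a ratio of -0.35 (-1.12 to 0.38). Basal keratinocytes had 5.07 CPM (3.80 to 6.63) in skin and 3.49 CPM (2.13 to 5.39) in the gland, lower by 2.87 (2.31 to 3.44) and 3.06 (2.13 to 4.005) on the log2 scale. Skin macrophages, at 23.1 CPM (7.52 to 54.0), did not differ from fibroblasts beyond counting error.

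S1pr3 (chr13:51408639-51422797, plus strand), which couples to several G proteins and is known from vascular smooth muscle, was found in fibroblasts and mural cells. In skin the interval of the mural cells lay above that of the fibroblasts. Fibroblasts had 18.6 CPM (12.3 to 26.9) in skin and 62.2 CPM (46.0 to 82.3) in the gland, and these intervals do not overlap. The gland value was 1.74 higher on the log2 scale (1.05 to 2.47), while S1pr2 in the same cells was not. Under higher minimums of genes and UMIs per cell, S1pr3 in fibroblasts was no longer counted as 2-fold apart. The 17 mural cells of skin had 391 CPM (214 to 655) on 14 UMIs, in 8 cells, and the 23 of the gland 87.8 CPM (18.1 to 257) on 3 UMIs. In skin epithelium, hair matrix cells had 14.8 CPM (9.50 to 22.1), higher than basal keratinocytes by 2.63 (1.76 to 3.50). In the gland steps, 14 of the 17 S1pr3 UMIs of basal-gated and sebocyte-gated cells lay in cells with no sebocyte marker.

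S1pr5 (chr9:21242912-21248443, minus strand), the receptor known from natural killer cells and oligodendrocytes, was the receptor with the most UMIs in basal and suprabasal-gated cells of both tissues. It was 11.0 CPM (9.08 to 13.2) in skin basal, 18.4 CPM (15.2 to 22.1) in suprabasal and 22.5 CPM (10.8 to 41.5) in upper follicle keratinocytes. In the gland it was 11.7 CPM (9.07 to 14.9) in basal, 24.9 CPM (16.6 to 36.0) in upper follicle cells and 3.89 CPM (2.31 to 6.16) in sebocytes. The gland sebocytes were lower than gland basal cells by 1.59 (0.82 to 2.43), and from 0 to 3 sebocyte markers the level was 16.9, 8.71, 4.11 and 2.18 CPM. With 4 or more it was 6.95 CPM (1.43 to 20.3), on 3 UMIs. In fibroblasts it had 0 UMIs, which allows 1.99 CPM in skin and 3.81 CPM in the gland. Levels in the same epithelial class did not differ between tissues beyond counting error. With each cell thinned, the skin suprabasal over basal ratio of 0.74 (0.36 to 1.13) was 0.19.

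S1pr4 (chr10:81497747-81500132, minus strand), a receptor of lymphoid and myeloid cells, had 29 UMIs in the skin and 5 in the gland library. Of the skin UMIs, suprabasal keratinocytes held 8, basal keratinocytes 4, inner root sheath cells 3, blood endothelial cells 2 and hair matrix cells 1. The 51 skin T cells held 4, which gives 50.2 CPM (13.7 to 128). No class of the gland had more than 1.

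**Figure D5:**
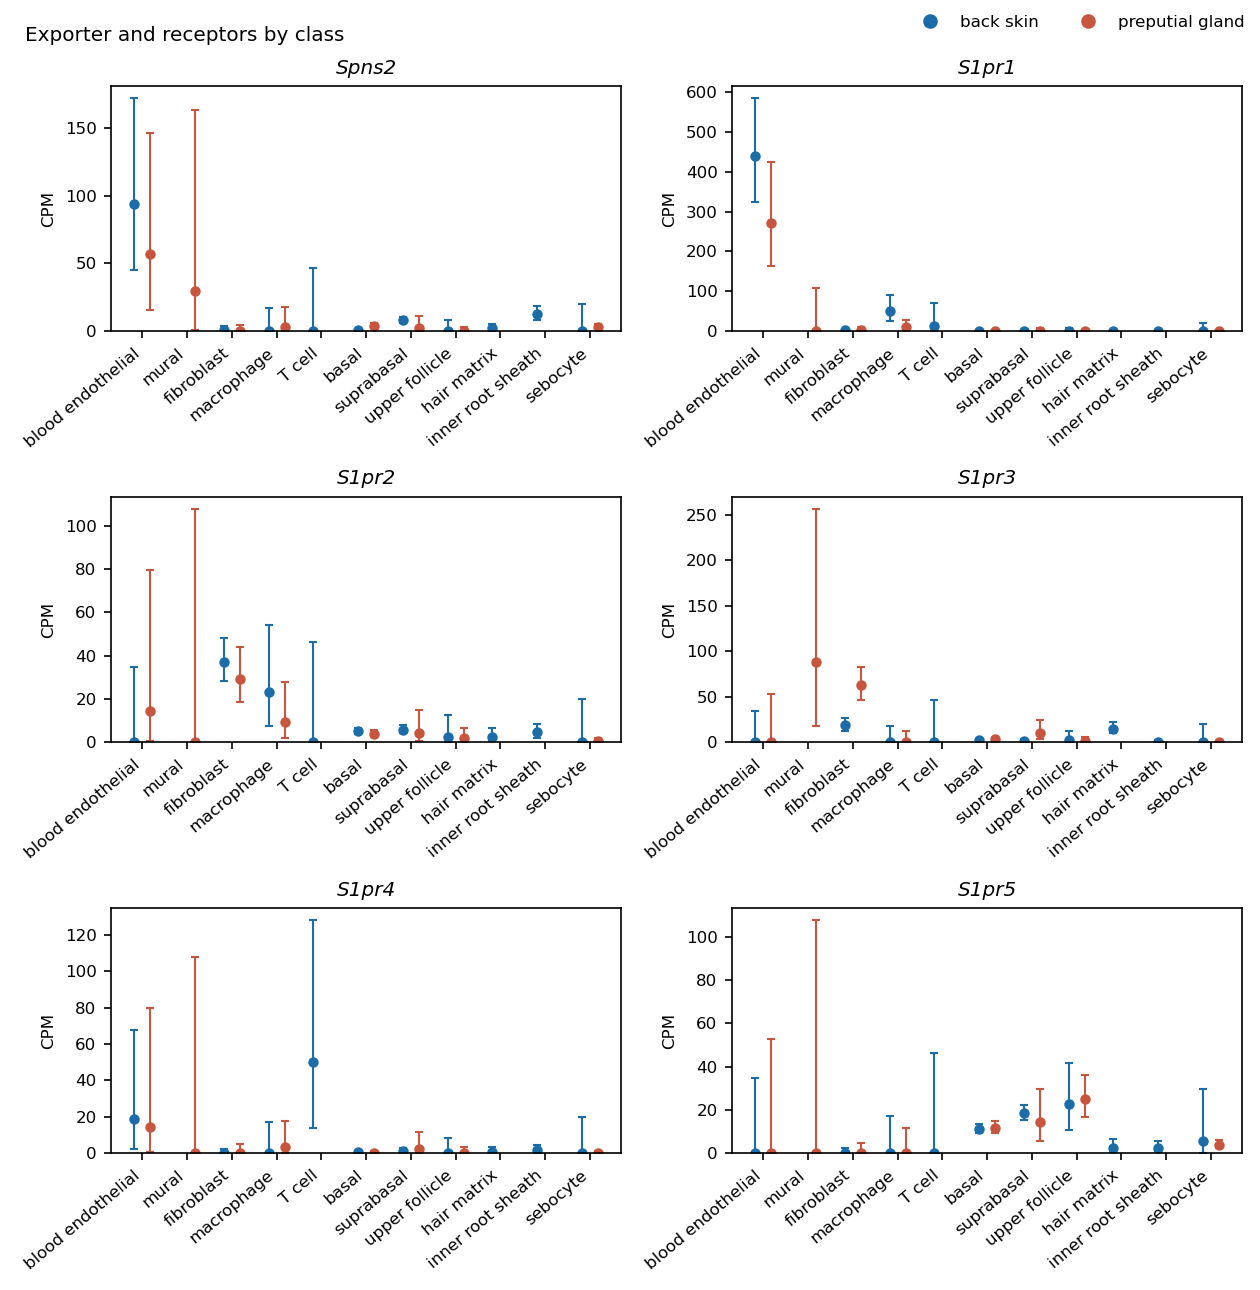
CPM of Spns2 and the 5 receptors in classes of back skin (blue) and preputial gland (red), points with exact 95% Poisson intervals, linear axes from 0. S1pr1 stands at 441 and 272 CPM in blood endothelial cells, S1pr2 at 37.2 and 29.2 CPM in fibroblasts, S1pr3 at 62.2 CPM in gland fibroblasts and 87.8 CPM in gland mural cells, and S1pr5 between 11.0 and 24.9 CPM in basal, suprabasal and upper follicle cells (the 17 skin mural cells are not drawn).

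The receptor UMIs behind these levels were also read as the make-up of each class. Of 49 receptor UMIs in skin blood endothelial cells 47 were S1pr1, and of 86 in skin fibroblasts 56 were S1pr2 and 28 S1pr3. Gland fibroblasts had 74, of which 49 were S1pr3 and 23 S1pr2. Gland upper follicle cells had 31, of which 28 were S1pr5. Summed over all 5 receptors, gland sebocytes were at 4.98 CPM and gland basal cells at 18.2 CPM, against 300.2 CPM in gland blood endothelial cells. The class with the highest kinase and phosphatase levels in the gland was therefore the one with the lowest receptor level among its 4 epithelial classes.

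The 49 other genes of sphingolipid supply, S1P removal and receptor coupling were read in 5 lists. In skin suprabasal keratinocytes 2 of 10 genes of sphingosine release were at least 4-fold higher than in the other gated cells (2.56% of all genes), the alkaline ceramidase Acer1 at 150 CPM against 8.13 CPM and the neutral ceramidase Asah2 at 26.5 CPM against 5.44 CPM. Among the genes of ceramide synthesis 1 of 13 tested passed, Sptlc3, a subunit of serine palmitoyltransferase, at 78.7 CPM against 6.90 CPM. The medians of these lists were 0.01 and 0.40 on the log2 scale, beside -0.44 over all genes tested. None of 4 genes of ceramide use passed (median 1.25), nor of 6 of other S1P phosphatases and transport (-0.50), nor of 9 of receptor coupling (-0.62). Acer1, which supplies sphingosine, was 2.04 CPM on 1 UMI in the suprabasal-gated cells of the gland.

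In gland sebocytes, where 1.43% of all genes passed, 1 of 6 genes of the list of other S1P phosphatases, aldehyde removal and transport did so, Aldh3a2, and 1 of 12 genes of ceramide synthesis, Cers4. Aldh3a2, the fatty aldehyde dehydrogenase that oxidises the aldehyde left by the lyase, was 207 CPM on 959 UMIs in gland sebocytes and 47.9 CPM in the other gated gland cells. It was 10.7 CPM on 2 UMIs in skin sebocytes, a ratio of 4.28 (2.42 to 7.32). Cers4, a ceramide synthase, went the other way between tissues, with 15.1 CPM in gland and 733 CPM in skin sebocytes. Acer1 was 0.433 CPM on 2 UMIs in gland and 118 CPM in skin sebocytes. List medians in gland sebocytes were -0.15 and 0.58, beside -0.24 over all genes.

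In skin blood endothelial cells (4.79% of all genes) 3 of 6 genes of that removal and transport list passed. They were the lipid phosphate phosphatases Plpp1 and Plpp3, which act at the cell surface, at 169 and 647 CPM, and the lipid transporter Abca1 at 178 CPM. Of receptor coupling 2 of 9 passed, the G protein subunit Gnai2 at 713 CPM and Klf2, a transcription factor of quiescent endothelium and of S1pr1-expressing lymphocytes, at 984 CPM. From the other lists the ceramide synthase Cers2 (1 of 13, on 9 UMIs), the ceramidases Asah2 and Acer2 (2 of 10, on 6 and 5 UMIs) and the glucosylceramide synthase Ugcg (1 of 4, on 21 UMIs) passed. In gland blood endothelial cells (5.87%) Plpp1, at 415 CPM, was 1 of 6, and Gnai2 and Klf2, at 1115 and 557 CPM, were 2 of 9. There Sptlc2 (1 of 12, on 8 UMIs) and the sphingomyelin synthase Sgms1 and Ugcg (2 of 3, on 7 and 5 UMIs) passed as well, and 0 of 9 genes of sphingosine release. Medians of the removal and the coupling list were 1.95 and 0.99 in skin, beside -0.73 over all genes, and 0.36 and 1.42 in the gland, beside -0.41.

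In skin fibroblasts (10.3%) the removal list passed for Plpp1, Plpp3 and Abca1, 3 of 6, at 40.5, 1048 and 119 CPM, the sphingomyelinase Smpd3, 1 of 10 genes of sphingosine release, stood at 598 CPM, and Cers2, 1 of 13, at 47.1 CPM. In gland fibroblasts (10.9%) Plpp1 and Plpp3, 2 of 6, stood at 105 and 1722 CPM, and the acid ceramidase Asah1 and Smpd3, 2 of 9, at 95.2 and 107 CPM. Ugcg, 1 of 3, was at 78.7 CPM and Klf2, 1 of 9, at 537 CPM in the same cells. In skin macrophages (5.46%) Asah1 was at 208 CPM, 1 of 10, the ceramide kinase Cerk at 92.6 CPM, 1 of 4, and Abca1 at 338 CPM, 1 of 6. Of receptor coupling 3 of 9 passed there, Gnai2, Gna13 and Klf2, at 546, 333 and 338 CPM. Gland macrophages (6.77%), where no member passed, had Asah1, 1 of 9, at 155 CPM. Cers6 (1 of 12), Ugcg (1 of 3) and Gnai2, Gna13 and Cd69 (3 of 9) passed there as well, and 0 of 6 genes of the removal list.

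The genes most like each member across the 21 groups of at least 20 cells were ranked by Pearson's r of log2(CPM + 10) over 11628 genes. The points share 2 libraries and differ in depth, and r is given as a description. S1pr5 was most like Plet1 (r = 0.97), a gene of the upper hair follicle, Phyhip (0.97) and Ccdc120 (0.96). S1pr1 was most like Cd93 (0.95), Cd300lg (0.94) and Gpihbp1 (0.91), and Spns2 like Rasip1 (0.91), Adgrf5 (0.90) and Podxl (0.90), with endothelial genes leading both. S1pr3 was most like Trnp1 (0.92), Osr2 (0.91) and C1qtnf7 (0.89), and S1pr2 like Rbp4 (0.89), C4b (0.88) and Ifi204 (0.87). Among the enzymes, Sgpl1 was most like Rnf13 (0.86), Os9 (0.84) and Mfsd1 (0.80), and Sphk2 like Chd7 (0.85) and Chmp1b (0.80). Sphk1 was most like Pcbd1 (0.83), Aldh3a1 (0.81) and Ephx2 (0.81), and Sgpp1 like Reep5 (0.82), Cstb (0.80) and Cebpa (0.80). S1pr4, with under 100 UMIs, was not ranked. Among the members themselves the closest pairs were Spns2 with S1pr1 (0.71), Sgpp1 with S1pr5 (0.65) and Sphk1 with Sgpp1 (0.63).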

How the data were processed

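Single-cell suspensions of back skin and preputial gland, each pooled from 3 mice, were sequenced as 1 library per tissue. The authors deposited unfiltered UMI counts per gene and barcode. The submitters' processing notes name Cell Ranger, the matrix headers give version 4, and the gene models are those of mm10. The values are raw counts without correction for free RNA. The members and gene lists were chosen with earlier results of these data known.

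Barcodes were kept with 500 or more genes, 1000 or more UMIs and no more than 10% of UMIs from mitochondrial genes. Of 21 classes gated on 121 markers (120 found), those with at least 20 cells were compared, which gave 12 groups in skin and 9 in the gland. A gate needed UMIs of 3 markers. Cells passing gates of more than 1 lineage were left out in place of a doublet caller. Genes with at least 20 UMIs over both groups were counted past a fold of 4 (class over other gated cells, with at least 5 UMIs in the class) or 2 (gland over skin). With 1 library per tissue no test was possible, and no p-value was computed. Intervals are exact 95% Poisson, binomial or conditional binomial intervals. Shares of cells were computed after thinning each cell to 1000 UMIs. A count of 0 was taken to allow 3 counts, and free RNA was read from barcodes with at most 100 UMIs. By rule, all 10 members, the listed genes past the fold in classes where a member passed it, and the 3 genes most like each member with at least 100 UMIs are named, except 1 that is not reported here, and gland sebocytes and macrophages were added with values known. Scripts were tested on simulated data (seed 1). Python 3.11.15, numpy 2.4.6, scipy 1.17.1, pandas 2.3.3 and matplotlib 3.10.9 were used.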

Additional observations from a re-analysis of the deposited data

Results flagged for a closer look

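Sphk1 differed in direction between the tissues in 3 comparisons of classes within a tissue. In suprabasal over basal keratinocytes the log2 ratio was 2.8 in skin and -3.26 in the preputial gland, in upper follicle over basal keratinocytes 1.39 and -3.65, and in fibroblasts over basal keratinocytes 1.06 and -1.95. The skin ratio of upper follicle cells rests on 7 of their UMIs, with an interval of 0.017 to 2.52. That of skin fibroblasts rests on 19, with an interval of 0.24 to 1.82. With 1 library per tissue, the difference between tissues was not tested in any of the 3. All 3 share the basal level of Sphk1 in the denominator, which was 6.03 CPM in skin and 78.4 CPM in the gland, and the suprabasal-gated gland cells did not bear out the markers of that class.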

How the results depend on the processing

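Of 35 named ratios, each recomputed under several alternatives (244 comparisons), 209 stayed within the counting interval of the main value, 35 moved and 0 reversed. Alternatives that left a side of a ratio without counts gave no ratio and are not among the 244. The count of members at least 4-fold higher in a skin class went from 7 to 3 at 8-fold, that in the gland from 3 to 5 at 3-fold, where S1pr5 in upper follicle cells and Sgpp1 in sebocytes were added, and the count of members 2-fold apart between tissues from 11 to 6 with each cell thinned to 1000 UMIs. The first 2 of these follow from the fold itself, and the cause of the last was not tested. At the unchanged 4-fold limit, Sgpp1 in gland sebocytes also passed with 1 more marker per gate and with free RNA subtracted. Sgpl1 in macrophages was counted as 2-fold apart under 2 of 8 alternatives (free RNA subtracted, upper UMI limit), with ratios between -2.28 and -0.36, and suprabasal Spns2 was not counted with 1 more marker or with cells thinned. With cells thinned, the sebocyte ratio of gland over skin was 2.14 (-0.36 to 7.46) for Sphk1, and the suprabasal over basal ratio of Spns2 in skin 2.04 (0.31 to 3.97). In cells with at most 5% mitochondrial UMIs, gland sebocytes over basal cells stood at 0.31 (0.03 to 0.58) for Sgpl1. The values without Lor-rich cells, in basal cells with no sebocyte marker and in sebocyte-gated cells only were added after seeing the data. Limiting the steps of 3 and of 4 or more markers to sebocyte-gated cells left the same cells. Its 3 comparisons, counted among the 209, could therefore not move. No paired analysis was possible because each tissue is 1 library and the labels carry no replicate numbers, and for the same reason no replicate could be left out. Depth limits S1pr4, Spns2 and every value of endothelial, mural and T cells, which rest on at most 51 cells per class.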
